A study of Rattus norvegicus with 20 samples.

Results

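The subject is a set of 10 genes named for fat cells, Adipoq, Cidec, Fabp4, Retn, Aqp7, Pck1, Cfd, Lpl, Lipe and Gpd1, as measured in rat ovary. The set is a list of gene names, and each probe was found through the transcript recorded for it on the array. All 10 genes had a probe, 11 probes in all since Lipe had 2, out of 15705 genes named on the array and 23258 probes tested. Ovaries came from 20 Sprague Dawley rats aged 46 days, each from its own litter, whose dams had eaten brominated flame retardants as a mixture (the diphenyl ether products DE-71, DE-79 and BDE-209, with hexabromocyclododecane) from at least a week before mating until the pups were weaned on day 21. The groups are named for the intended dose to the dam, 0 mg/kg/day (5 animals, called control ovaries below), 0.06 mg/kg/day (4 animals, 0.75 mg of mixture per kg of diet), 20 mg/kg/day (5 animals, 250 mg per kg) and 60 mg/kg/day (6 animals, 750 mg per kg). The submitters removed a further animal at 0.06 mg/kg/day as an outlier before deposit. RNA of whole ovary was hybridised in 1 colour, 1 animal per array, and the labels give ovary as the tissue, so whether fat lay on a sample was not recorded.

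A white fat cell stores triglyceride in a droplet and releases hormones. Adipoq encodes adiponectin, a hormone made almost entirely by fat cells, and Retn encodes resistin, which rodent fat cells secrete. Cfd is adipsin, a protease of the complement system. Cidec coats and enlarges the lipid droplet, Aqp7 lets glycerol out of the cell, and Pck1 (phosphoenolpyruvate carboxykinase) makes the glycerol backbone for new triglyceride in fat as it makes glucose in liver. Lpl frees fatty acids from blood lipoproteins, Fabp4 carries fatty acids inside the cell and is also made by macrophages and capillary endothelium, Gpd1 makes glycerol 3-phosphate, and Lipe (hormone-sensitive lipase) splits stored triglyceride and, in steroid-making cells, cholesterol esters.

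Where RefSeq gives a promoter for a gene that the co-variation below turns on, the 250 bases before the start are shown, from the assembly GRCr8. Adipoq lies at chr11:91240170-91240419 and Cidec at chr4:148137116-148137365, both on the minus strand, and Retn at chr12:6508524-6508773 and Pck1 at chr3:182348322-182348571, both on the plus strand. Each reads 5′ to 3′ in the direction of its gene, and capitals mark matches on either strand to AGGTCA (bound by many nuclear receptors), CCAAT (the CCAAT box), TTACGTCA (a cAMP response element) and TATTTAAA (a TATA-like box).
Adipoq: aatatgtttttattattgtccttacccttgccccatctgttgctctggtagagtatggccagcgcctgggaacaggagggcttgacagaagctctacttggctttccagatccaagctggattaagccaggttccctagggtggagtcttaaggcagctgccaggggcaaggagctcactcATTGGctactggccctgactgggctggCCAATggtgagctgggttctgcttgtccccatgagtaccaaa
Cidec: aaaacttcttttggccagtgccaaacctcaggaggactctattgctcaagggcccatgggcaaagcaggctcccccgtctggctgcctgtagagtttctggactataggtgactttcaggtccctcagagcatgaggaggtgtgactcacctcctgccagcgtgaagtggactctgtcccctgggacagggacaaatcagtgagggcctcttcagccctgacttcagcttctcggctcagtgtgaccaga
Retn: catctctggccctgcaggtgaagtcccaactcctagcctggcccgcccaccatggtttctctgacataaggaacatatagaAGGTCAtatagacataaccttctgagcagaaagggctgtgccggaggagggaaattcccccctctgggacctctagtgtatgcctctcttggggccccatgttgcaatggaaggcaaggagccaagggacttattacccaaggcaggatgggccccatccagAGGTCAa
Pck1: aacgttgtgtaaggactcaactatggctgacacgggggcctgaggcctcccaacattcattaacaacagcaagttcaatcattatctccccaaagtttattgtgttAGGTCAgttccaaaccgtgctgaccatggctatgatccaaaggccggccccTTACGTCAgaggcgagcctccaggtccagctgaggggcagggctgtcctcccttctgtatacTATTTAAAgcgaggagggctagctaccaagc
None of these motifs stood in all 4 stretches, and Cidec held none. AGGTCA stood in Retn, 2 times, and in Pck1, CCAAT stood in Adipoq on each strand, and TTACGTCA and TATTTAAA stood in Pck1. Of 33469 RefSeq promoters cut to the same window, 14.1% held AGGTCA, 34.02% held CCAAT, 0.750% held TTACGTCA and 1.69% held TATTTAAA. No motif overlapped another, and a match describes letters in a window and not a bound site.

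Levels are given below as log2 of the background-subtracted signal minus the log2 75th percentile of the same array, so 0 is the signal of a probe at that percentile and a step of 1 is a doubling. They compare 1 probe across arrays and are not levels of one gene against another. The 75th percentile ranged between 1158 and 1737 signal units, between 74.8% and 83.4% of spots on an array stood well above background, and no spot was saturated. A probe was tested if 4 or more of the 20 arrays read it well above background. Arrays lay on 3 slides of 7, 6 and 7, and each slide held all 4 doses. In 5 ovaries (replicate 3 at 0, replicate 1 at 0.06, replicates 2 and 5 at 20 and replicate 5 at 60 mg/kg/day) Cyp17a1, with which theca cells make androgen, lay between -3.52 and -2.62. In the other 15 it lay between 1.71 and 3.86, with no value between. Some of the relations below are therefore also given over those 15, a choice made after seeing the values.

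Adiponectin varied widely between ovaries of the same dose. Adipoq read -0.40, -2.03, -2.02, -0.35 and -1.77 in control ovaries, 0.17, -1.96, -1.27 and -1.71 at 0.06 mg/kg/day, then -1.81, -0.41, -2.56, -1.18 and -3.90 at 20 mg/kg/day, and a lowest, median and highest of -2.92, -2.13 and -0.06 at 60 mg/kg/day. Each dose held a high ovary near 0 and others far below it, and the 4 groups overlapped. From the lowest ovary, replicate 5 at 20 mg/kg/day, to the highest, replicate 1 at 0.06 mg/kg/day, the signal differed 16.8-fold, and the SD of 1.06 over the 20 arrays exceeded that of 97.4% of all tested probes, whose median SD was 0.276.

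Cidec, the droplet protein, read -4.58, -5.74, -5.64, -4.44 and -5.66 in control ovaries, -3.97, -5.63, -5.45 and -5.52 at 0.06 mg/kg/day, and -5.68, -4.20, -6.78, -5.37 and -8.60 at 20 mg/kg/day. Its lowest, median and highest values at 60 mg/kg/day were -7.12, -6.26 and -5.05. The same ovary was highest and the same ovary lowest as for Adipoq, and the groups overlapped.

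Aqp7, the glycerol channel, read -4.53, -6.50, -6.40, -4.39 and -5.80 in control ovaries, -4.11, -6.37, -5.40 and -5.94 at 0.06 mg/kg/day, and -6.45, -4.92, -6.81, -5.54 and -8.87 at 20 mg/kg/day. Its lowest, median and highest values at 60 mg/kg/day were -6.98, -6.07 and -4.84. The control ovaries highest in Adipoq, replicates 1 and 4, were also the control ovaries highest in Aqp7 and in Cidec.

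Retn, the hormone resistin, read -0.76, -2.16, -2.61, -0.67 and -1.59 in control ovaries, -0.30, -1.94, -1.69 and -1.77 at 0.06 mg/kg/day, and -1.62, -0.63, -1.76, -0.97 and -3.78 at 20 mg/kg/day. Its values at 60 mg/kg/day spanned -3.64 to -0.55 with a median of -2.31. Pck1 read -5.08, -6.46, -5.43, -4.54 and -5.35 in control ovaries, -4.68, -6.51, -5.81 and -5.86 at 0.06 mg/kg/day, and -5.40, -4.43, -6.13, -5.61 and -8.39 at 20 mg/kg/day, with -7.93, -6.04 and -4.96 as lowest, median and highest at 60 mg/kg/day. For both genes replicate 5 at 20 mg/kg/day was again the lowest ovary.

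The other members spanned less or followed another order. Cfd lay between 0.10 and 2.23, a 4.39-fold range, Lpl between -3.65 and -1.93 (3.29-fold), Lipe between -4.16 and -2.26 (3.73-fold) and Gpd1 between -1.04 and 1.22 (4.78-fold). Their SDs were 0.53, 0.46, 0.39 and 0.61, wider than those of 82.7%, 76.4%, 69.9% and 87.4% of tested probes in that order. Fabp4 spanned 9.11-fold, from -2.38 to 0.81.

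Some of the lowest readings were at the edge of detection. Cidec was not well above background on 4 arrays, Aqp7 on 5 and Pck1 on 2, while the other 7 genes were well above it on all 20. Over the arrays where it was well above background Cidec spanned 6.28-fold, Aqp7 7.29-fold and Pck1 4.21-fold, and their correlations with Adipoq over those arrays alone were 0.91, 0.97 and 0.79.

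**Figure D1:**
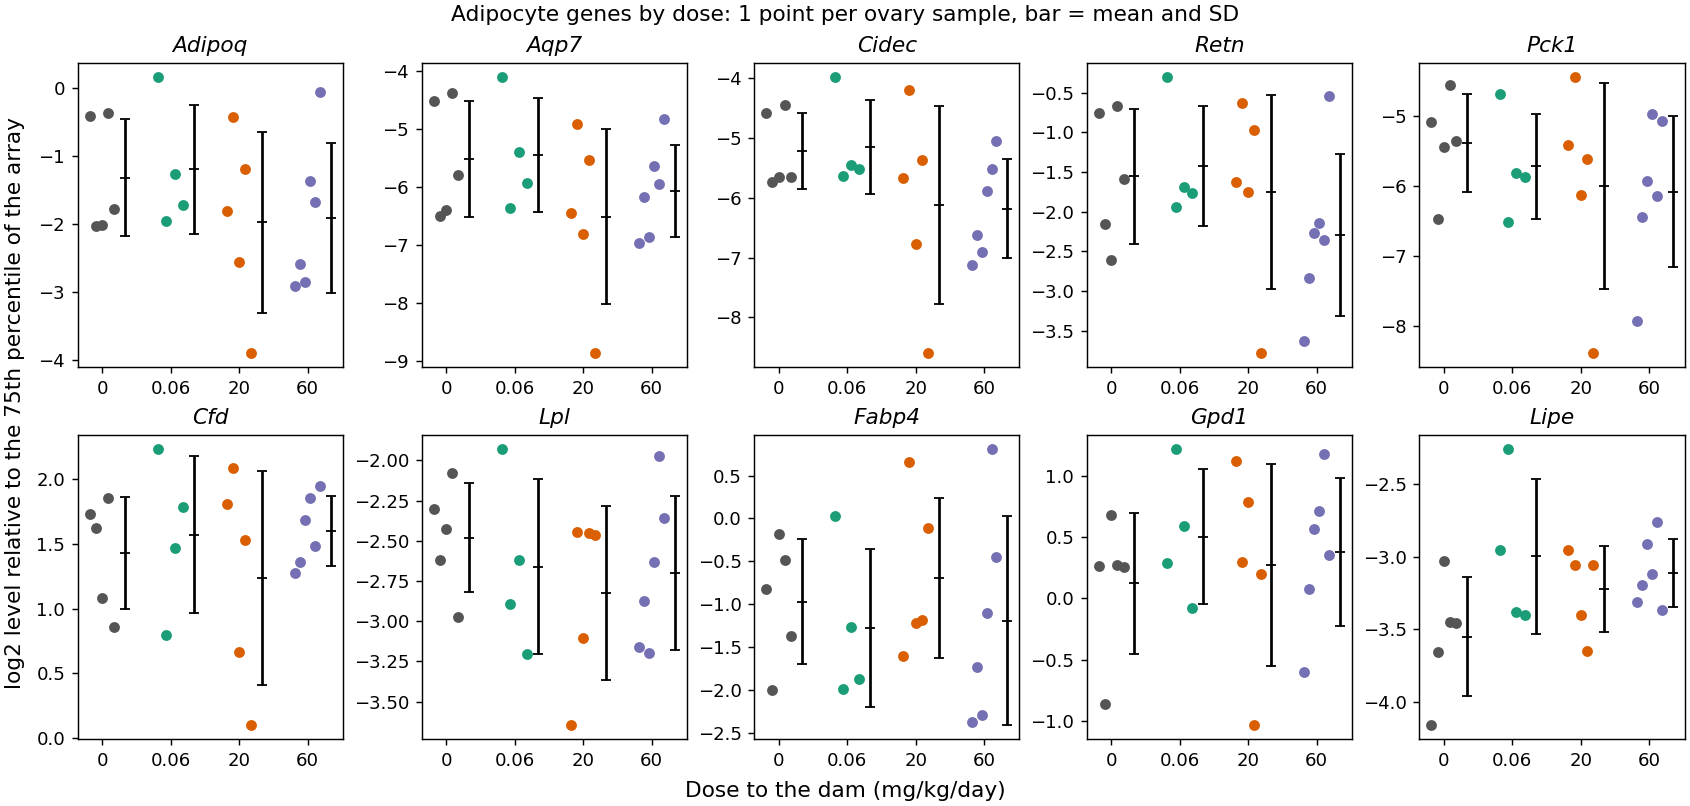
Level of each adipocyte gene (y axis, log2 relative to the 75th percentile of the array) by dose to the dam (x axis, mg/kg/day), with 1 point per ovary and bars for mean and SD (n = 5, 4, 5 and 6). Adipoq, Aqp7, Cidec, Retn and Pck1 share their lowest ovary, at 20 mg/kg/day, and no gene separates the doses.

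Adipoq, Aqp7, Cidec, Retn and Pck1 rose and fell together from ovary to ovary. With Adipoq, Aqp7 had a Pearson r of 0.96 and a Spearman rho of 0.96, Cidec 0.95 and 0.93, Retn 0.91 and 0.87, and Pck1 0.85 and 0.82 (20 ovaries). Each of the 4 reached an adjusted p of 0.0233 for r by two-sided permutation with Benjamini-Hochberg adjustment over 23257 probes, and their unadjusted p, 1e-05, is the smallest that 100000 resamples can give. Only 11 of those 23257 probes, 0.0473%, correlated positively with Adipoq at an adjusted p under 0.05, and these 4 members were among them. For rho the adjusted p was 0.0258 for Aqp7, Cidec and Retn and 0.0846 for Pck1.

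Without the 2 extreme ovaries r stayed at 0.78 or above for all 4, and 3 of the 4 still passed. Without the ovaries farthest from the Adipoq median, replicate 5 at 20 mg/kg/day and replicate 1 at 0.06 mg/kg/day, r was 0.95 for Aqp7, 0.92 for Cidec and 0.87 for Retn, whereas Pck1 had 0.78 and no longer passed (adjusted p = 0.190 by permutation). Leaving out replicate 5 at 20 mg/kg/day alone gave Pck1 an r of 0.80 and an adjusted permutation p of 0.0846. Within slides 1, 2 and 3, Aqp7 had an r of 0.95, 0.99 and 0.97, Cidec 0.98, 0.93 and 0.95, Retn 0.96, 0.79 and 0.96, and Pck1 0.89, 0.70 and 0.92, and none passed in so few arrays. Over the 15 ovaries with high Cyp17a1 r was 0.95 for Aqp7, 0.93 for Cidec, 0.87 for Retn and 0.77 for Pck1, with adjusted permutation p of 0.0775, 0.0775, 0.129 and 0.633, and no probe passed. With dose means removed r was 0.97 for Aqp7, 0.95 for Cidec, 0.93 for Retn and 0.86 for Pck1, so the co-variation was present among ovaries of 1 dose. Of the 45 pairs of members, 35 had a positive r, and over the 10 pairs that these 5 genes form, r lay between 0.85 and 0.96. Set against Cidec 0.0387% of probes were called, against Retn 0.0301%, against Pck1 0.0301% and against Aqp7 0.0473%, all of them positive.

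The steepness of the relation was read both over all ovaries and over those with a signal well above background. Per unit of log2 Adipoq, Aqp7 changed by 1.00 ± 0.07 (SE, n = 20), Cidec by 0.98 ± 0.07, Retn by 0.84 ± 0.08 and Pck1 by 0.82 ± 0.11. Over the arrays where the gene itself was well above background the slope was 0.95 ± 0.07 for Aqp7 (n = 15), 0.77 ± 0.10 for Cidec (n = 16) and 0.58 ± 0.11 for Pck1 (n = 18), so the steeper slopes of Cidec and Pck1 over all ovaries included readings not above background. On the linear scale a straight line was also fitted to each gene against Adipoq, and the fitted signal at an Adipoq signal of 0 was taken as a share of the fitted signal at the median ovary. The share extrapolates, since no ovary had an Adipoq signal of 0, and a flat line gives the whole signal by construction. That share was 9.12% ± 10.4 (SE, n = 20) for Aqp7, 20.5% ± 12.6 for Cidec, 24.4% ± 8.62 for Retn and 44.9% ± 12.0 for Pck1. Over the arrays with a signal well above background it was 6.96% ± 12.5 for Aqp7, 28.4% ± 14.1 for Cidec and 53.7% ± 11.4 for Pck1. After a background correction that adds 50 signal units to each spot the shares of the dim probes were larger, 70.3% for Aqp7, 72.0% for Cidec and 80.9% for Pck1.

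**Figure D2:**
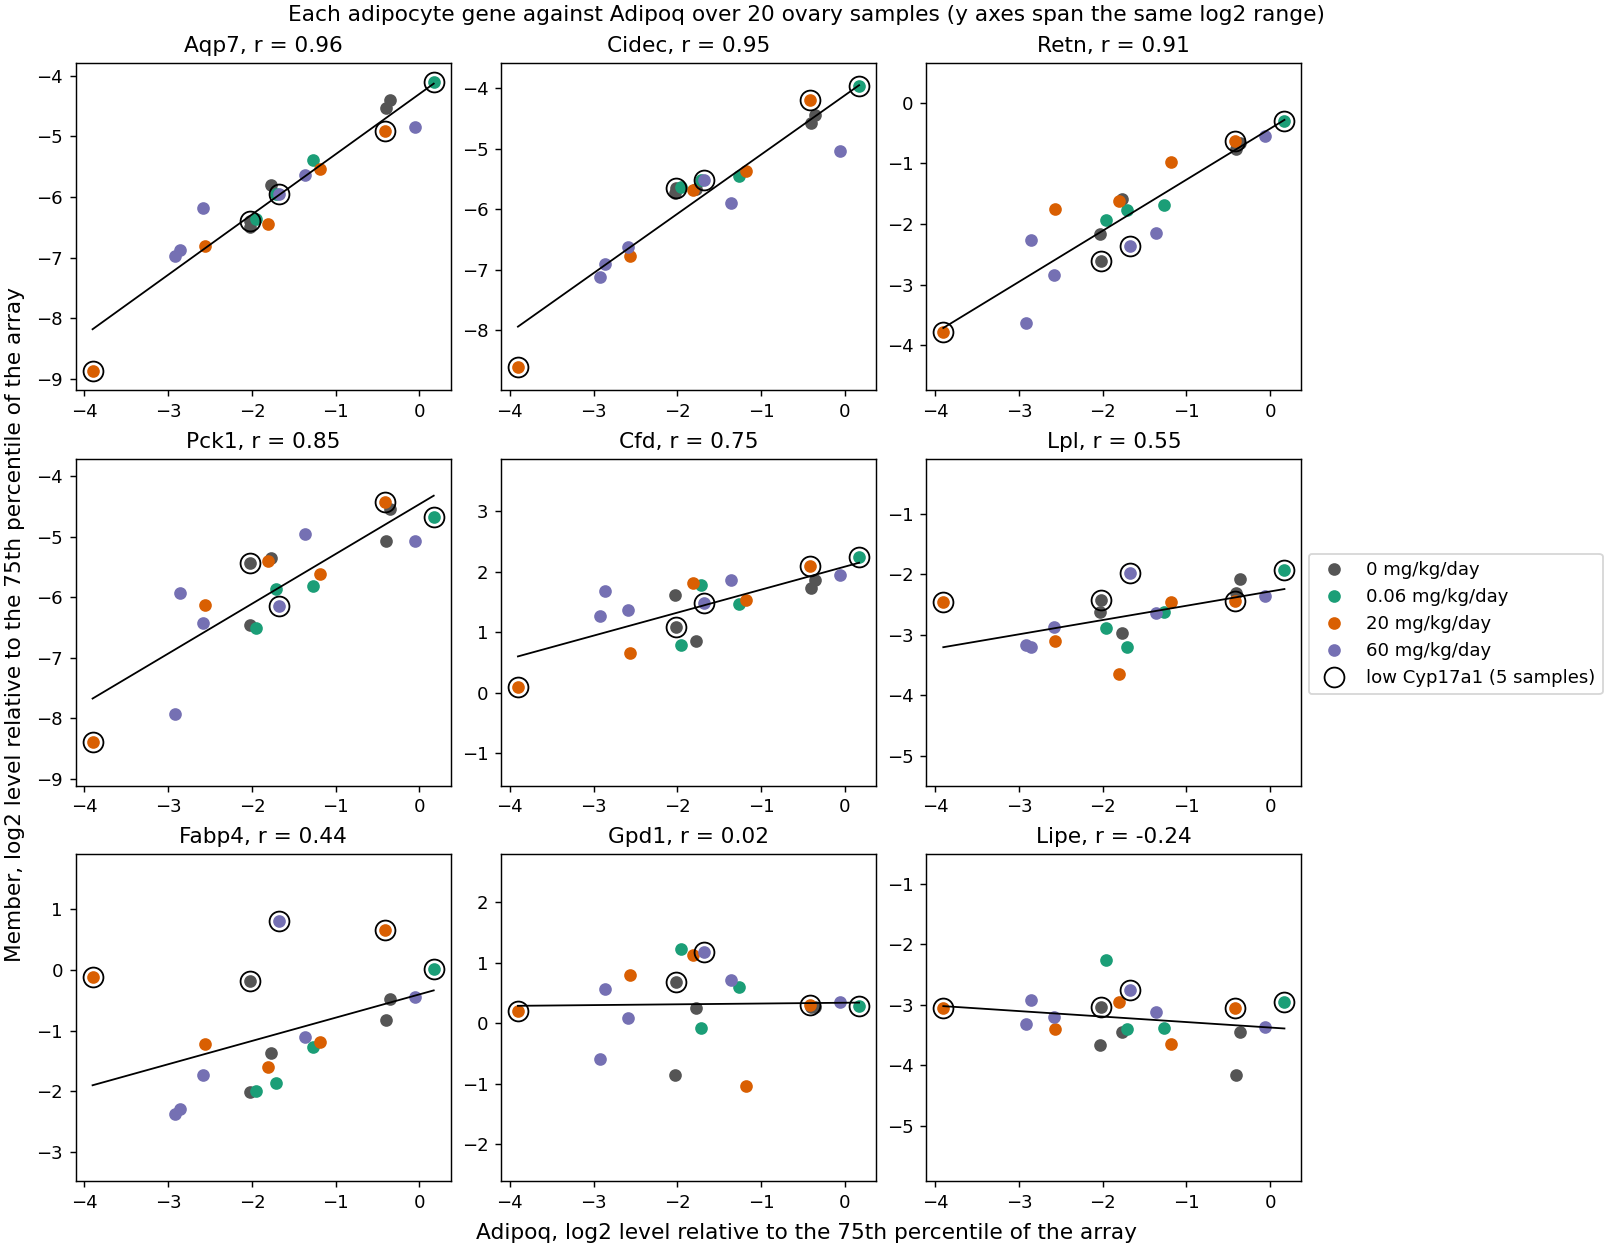
Each gene (y axis) against Adipoq (x axis), both as log2 relative to the 75th percentile of the array, 1 point per ovary coloured by dose, with the fitted line and rings on the 5 ovaries low in Cyp17a1. Aqp7, Cidec, Retn and Pck1 follow Adipoq closely, Fabp4 has an r of 0.87 over the 15 ovaries without a ring and 0.44 over all 20, and Gpd1 and Lipe have 0.02 and -0.24.

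Of the 11 probes correlated with Adipoq, the other 7 belonged to Car3 (r = 0.98), Agt (0.92), Ces1d (0.92), Sncg (0.88), Acvr1c (0.87), Thrsp (0.86) and Dgat2 (0.84). Car3 is a carbonic anhydrase abundant in fat and muscle, and its level in the 20 ovaries lay between -5.83 and -1.97, lowest and highest in the same ovaries as Adipoq. Agt is angiotensinogen, the precursor of angiotensin, which fat makes beside liver. Ces1d is a carboxylesterase that hydrolyses triglyceride in rodent fat. Its near relative Ces1dl1 had an r of 0.76 with Adipoq (adjusted permutation p = 0.215). Whether the Ces1d probe also reads Ces1dl1 was not tested. Dgat2 performs the last step of triglyceride synthesis, Thrsp promotes fatty acid synthesis, Acvr1c is an activin receptor of fat cells, and Sncg is a synuclein found in fat and nerve. Adjusted permutation p was 0.0423 for Acvr1c and 0.0233 for the other 6.

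Without the farthest 2 ovaries 7 probes passed, against 11 over all 20. For the 7 other genes r then lay between 0.79, for Acvr1c, and 0.97, for Car3, and within single slides the lowest of the 7 values was 0.75, again for Acvr1c, on slide 2. Next in order after the 11 came Ces1dl1, Cfd, Retnlg (0.72), Ppp1r1a (0.71) and Gjb2 (0.68), and then Mtarc1 (0.62), Piwil4 (0.61), Rnf113a1 (0.59) and Rbp7 (0.58), none of which passed. The limma slope on Adipoq called the same 11 probes, and by rho 10 of the 11 passed. No probe correlated negatively at an adjusted p under 0.05 by permutation or by limma, while 108 did at an unadjusted permutation p under 0.05, beside 154 positive ones.

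**Figure D3:**
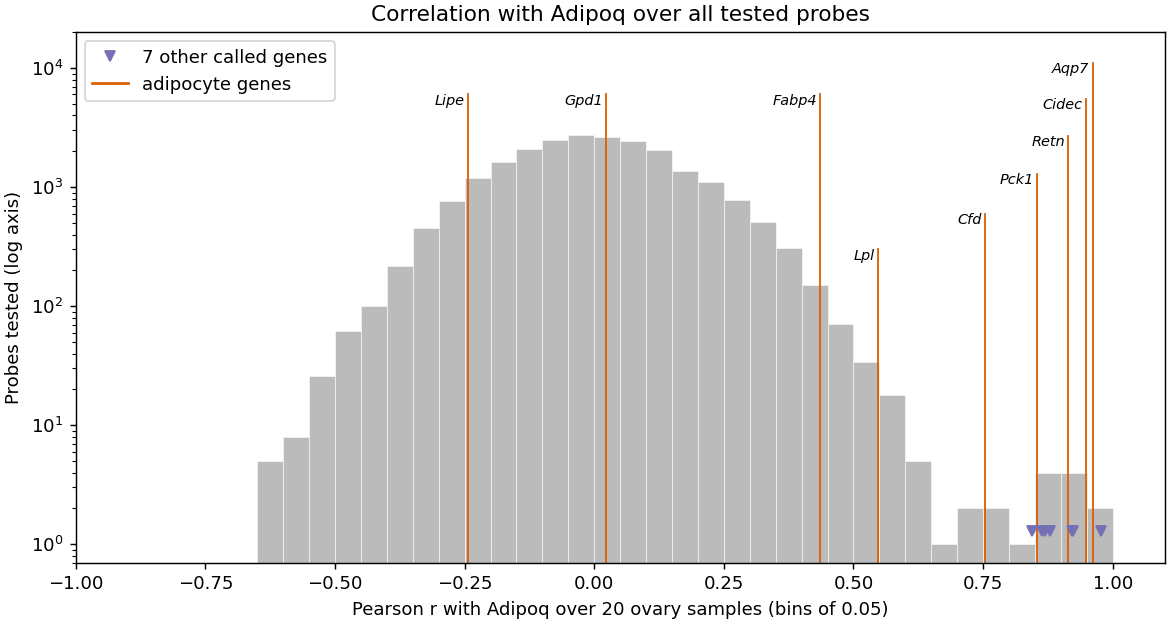
Number of tested probes (y axis, log scale) by Pearson r with Adipoq over 20 ovaries (x axis, bins of 0.05), with lines at the adipocyte genes and triangles at the 7 other genes called. Aqp7, Cidec, Retn and Pck1 lie beyond nearly all probes, Cfd just inside them, Lpl and Fabp4 in the upper tail, and Gpd1 and Lipe within the main body.

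Other genes known from fat were read from a list. Of a list of 40 such genes, 35 were on the array under that name and 32 were tested, 24 had a positive r with Adipoq and 5 were called (Car3, Sncg, Acvr1c, Thrsp and Dgat2). Their median r was 0.18, against -0.0028 over all tested probes. Of 5 of the others that were chosen after their values were seen, Adrb3, the adrenergic receptor of fat cells, had 0.57, the lipid synthesis genes Scd and Fasn 0.56 and 0.39, the fatty acid transporter Cd36 0.10 and Pparg, the nuclear receptor that drives fat cell formation, -0.11, and none of these 5 passed. Leptin (Lep) stood well above background on 2 of 20 arrays and was not tested, and no probe was named Plin1, Plin4 or Adig.

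Markers of other cells that a sample could hold did not pass the test with Adipoq. Of the 14 other lists none had a member called in either direction. The 12 luteal and steroid-making genes had a median r of -0.02, 8 granulosa genes -0.10, 6 theca genes -0.21, 10 oviduct epithelium genes 0.03, 9 macrophage genes -0.07, 8 endothelial genes 0.00 and 8 genes of the stroma of fat -0.02. The remaining lists with 3 to 8 genes tested had medians of -0.19 (brown fat, with Ucp1 well above background on 7 arrays), 0.15 (lipolysis and droplet), 0.05 (triglyceride uptake), 0.14 (ovary surface and mesothelium), -0.15 (smooth muscle), 0.06 (lymphocyte) and 0.26 (erythrocyte). In the lipolysis and droplet list the highest r values were those of Pnpla2 (0.27), Plin2 (0.19), Mgll (0.16) and Abhd5 (0.15), and in the uptake list Gpihbp1 (0.25), Vldlr (0.22), Cd36 (0.10) and Apoc2 (0.05). Cd34 (0.53), Dpp4 (0.50), Cxcl14 (0.41) and Pi16 (0.10) led the stroma of fat, Hsd3b1 (0.31), Fdx1 (0.19), Akr1c18 (0.11) and Cyp11a1 (-0.02) the luteal list, and Lyz2 (0.01) and Cd163 (-0.02) the macrophage list. Each of these had an adjusted permutation p of 1.00. In RNA of a whole sample, fewer cells of a type and less RNA per cell cannot be told apart.

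Adipsin had a positive r with Adipoq that did not pass. Cfd read 1.73, 1.62, 1.08, 1.86 and 0.86 in control ovaries, 2.23, 0.79, 1.47 and 1.79 at 0.06 mg/kg/day, and 1.81, 2.08, 0.66, 1.53 and 0.10 at 20 mg/kg/day, with 1.27, 1.59 and 1.95 as lowest, median and highest at 60 mg/kg/day. Its highest and lowest ovaries were those of Adipoq, and r was 0.75 (rho 0.73) but did not pass (adjusted p = 0.213 by permutation over all probes). Without the farthest 2 ovaries r was 0.58, and leaving out replicate 3 at 60 mg/kg/day gave 0.82, which passed (adjusted permutation p = 0.0358). Cfd changed by 0.38 ± 0.08 (SE) per unit of log2 Adipoq, and 73.3% ± 6.12 of its fitted signal remained at an Adipoq signal of 0. Its own 5 nearest genes were Car3 (0.81), Aqp7 (0.77), Adipoq, Cidec (0.74) and Pck1 (0.71), and none passed with Cfd as the gene compared.

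Fabp4 had a positive r with Adipoq that did not pass. It read -0.82, -2.01, -0.18, -0.49 and -1.37 in control ovaries, 0.02, -2.00, -1.27 and -1.87 at 0.06 mg/kg/day, then -1.61, 0.66, -1.22, -1.19 and -0.12 at 20 mg/kg/day, and -2.38, -1.41 and 0.81 as lowest, median and highest at 60 mg/kg/day. In replicate 5 at 20 mg/kg/day, where the 5 genes above and Cfd were at their lowest, Fabp4 was among its highest. Over all 20 ovaries r with Adipoq was 0.44 (rho 0.55; permutation p = 0.055 for r and 0.0138 for rho, adjusted p = 1.00 for each), and within slides 1, 2 and 3 it was 0.95, 0.61 and -0.05.

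The 5 ovaries highest in Fabp4 were the 5 in which Cyp17a1 was low. Fabp4 lay between -0.18 and 0.81 in the 5 and between -2.38 and -0.45 in the 15. Over the 15, r of Fabp4 with Adipoq was 0.87 (adjusted permutation p = 0.129), that of Lpl 0.75 and that of Cfd 0.52. Without replicate 5 at 20 mg/kg/day alone it was 0.66 for Fabp4. The 5 hold both the lowest and the highest Adipoq of all 20 ovaries, -3.90 and 0.17.

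Fabp4 and Lpl moved together. Lpl read -2.30, -2.62, -2.42, -2.08 and -2.98 in control ovaries, -1.93, -2.89, -2.62 and -3.20 at 0.06 mg/kg/day, and -3.65, -2.45, -3.10, -2.45 and -2.47 at 20 mg/kg/day, with -3.20, -2.75 and -1.97 as lowest, median and highest at 60 mg/kg/day. Their r was 0.77 and rho 0.80, with 0.73, 0.91 and 0.81 within slides 1, 2 and 3 and 0.70 over the 15 ovaries with high Cyp17a1. The adjusted permutation p was 0.00820 among all probes set against Fabp4 and 0.392 among all probes set against Lpl, where no probe passed. With Adipoq, Lpl had an r of 0.55 (rho 0.63; permutation p = 0.0135 for r, adjusted p = 1.00), a change of 0.24 ± 0.08 (SE) per unit of log2 Adipoq, and 78.1% ± 6.46 of its fitted signal at an Adipoq signal of 0. For Fabp4 the change was 0.38 ± 0.18 and the share 67.4% ± 20.5.

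Over all 20 ovaries Fabp4 correlated with 5.15% of probes positively and with 3.1% negatively at an adjusted permutation p under 0.05, and of the other members only Lpl was called. The 5 ovaries low in Cyp17a1, which were also highest in Fabp4, are in these shares. They are also in the list medians below, which were not taken over the 15. The genes nearest to it, chosen after its values were seen, were Lao1 (r = 0.92), Gsn, which severs actin filaments (0.89), Lgals3, a galectin typical of macrophages (0.88), the complement component C6 (0.88) and Obp3 (0.87). Over the 15 ovaries with high Cyp17a1 these r values were 0.80, 0.67, 0.62, 0.77 and 0.58. Of the 32 further fat genes tested, 20 had a positive r with Fabp4, the median was 0.16, and 5 were called positive and 2 negative. Among the 5, Fabp5, another fatty acid carrier, had 0.85 and G0s2, an inhibitor of lipolysis, 0.82 (adjusted permutation p = 0.00517 for both), against 0.54 and 0.56 over the 15 ovaries. The 9 macrophage markers all had a positive r with Fabp4, median 0.35 against -0.0026 over all tested probes, and none was called. Medians were higher for smooth muscle (0.51), ovary surface and mesothelium (0.41), brown fat (0.39) and lipolysis and droplet genes (0.36), each list with 1 gene called. Of the 8 endothelial genes 1 was positive, with a median of -0.23. The macrophage markers were also all positive with Lipe (median 0.19) and with Gpd1 (0.34). Nearest to Lpl were Alox12e, a lipoxygenase (0.82), Fabp4, Psph (0.76), Anxa1 (0.75) and C6 (0.72).

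**Figure D4:**
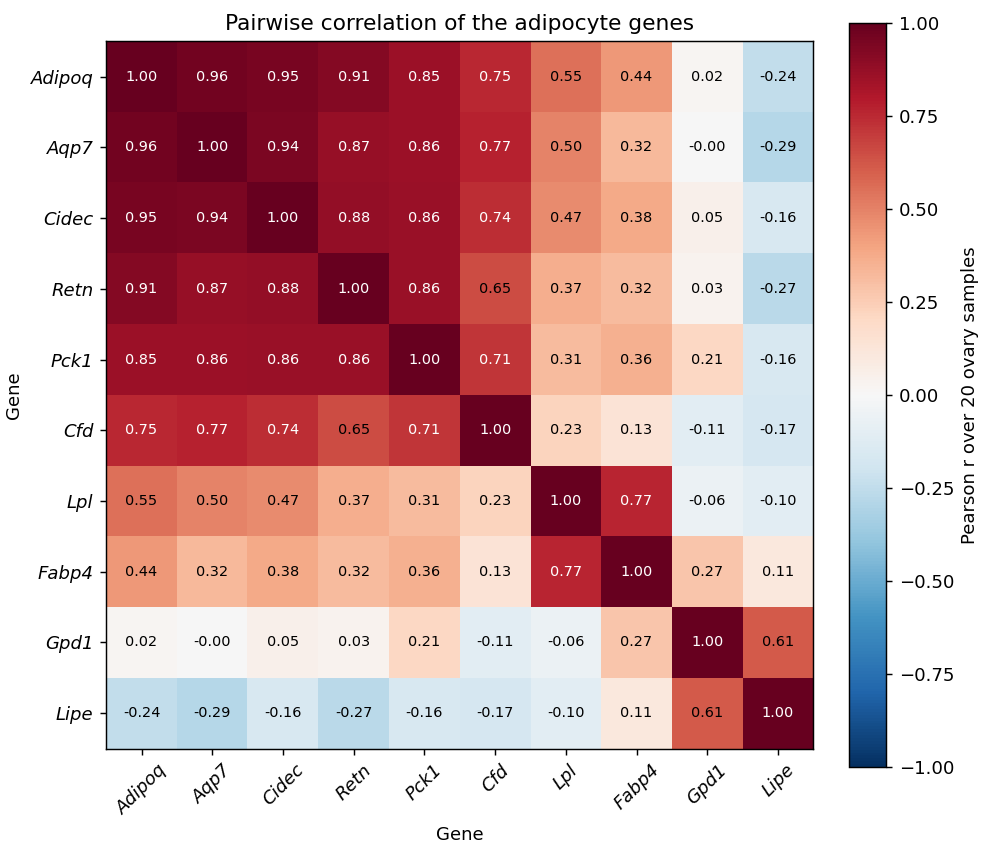
Pearson r over 20 ovaries for each pair of the adipocyte genes (both axes, colour and number give r). Adipoq, Aqp7, Cidec, Retn and Pck1 form a block of 0.85 to 0.96, Fabp4 and Lpl a pair at 0.77, and Gpd1 and Lipe a pair at 0.61.

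For Lipe and Gpd1 no relation with Adipoq passed the test. Lipe read -4.16, -3.66, -3.03, -3.45 and -3.46 in control ovaries, -2.95, -2.26, -3.38 and -3.40 at 0.06 mg/kg/day, and -2.95, -3.06, -3.40, -3.65 and -3.05 at 20 mg/kg/day, with -3.36, -3.16 and -2.76 as lowest, median and highest at 60 mg/kg/day. Its r with Adipoq was -0.24 (rho -0.21; permutation p = 0.302 for r, adjusted p = 1.00), and it was lowest in a control ovary, replicate 1, where Adipoq was among its highest. A second Lipe probe gave nearly the same profile (r = 0.96 between the probes). The change per unit of log2 Adipoq was -0.09 ± 0.08 (SE), and 105.3% ± 6.38 of the fitted signal remained at an Adipoq signal of 0.

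Gpd1 read 0.27, -0.86, 0.68, 0.27 and 0.25 in control ovaries, 0.29, 1.22, 0.59 and -0.08 at 0.06 mg/kg/day, and 1.13, 0.30, 0.79, -1.04 and 0.20 at 20 mg/kg/day, with -0.60, 0.46 and 1.18 as lowest, median and highest at 60 mg/kg/day. Its r with Adipoq was 0.02 (rho 0.08, adjusted permutation p = 1.00), with 0.25, -0.32 and -0.17 within slides 1, 2 and 3. It changed by 0.01 ± 0.13 (SE) per unit of log2 Adipoq, and 103.8% ± 8.73 of the fitted signal remained at an Adipoq signal of 0.

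Lipe and Gpd1 had an r of 0.61 with each other (rho 0.62), with 0.61, 0.53 and 0.51 within slides, and did not pass among all probes (adjusted permutation p = 0.0844 set against Lipe and 0.263 set against Gpd1). Lipe correlated positively with 1.33% of probes and negatively with 1.46% at an adjusted permutation p under 0.05. Among them was Star, which brings cholesterol into the mitochondria for steroid synthesis, with r = 0.76 and rho = 0.80 (adjusted permutation p = 0.0115 for r), 0.84, 0.80 and 0.92 within slides and 0.78 without the 2 ovaries farthest from the Lipe median. Star had an r of 0.68 with Gpd1 (adjusted permutation p = 0.248). Of the 12 luteal and steroid-making genes, 10 had a positive r with Lipe, 1 was called, and the median was 0.21 against -0.08 over all tested probes. Higher medians with Lipe were those of smooth muscle (0.38, 8 of 8 positive), lipolysis and droplet (0.35), brown fat (0.35) and ovary surface and mesothelium genes (0.32). The other lists had lower medians than the luteal genes.

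Of the lipolysis and droplet genes Plin5, a droplet protein of tissues that burn fat, was called with Lipe (r = 0.76, adjusted permutation p = 0.0319), but r was 0.31 without the farthest 2 ovaries and -0.04 within slide 3, so that relation rested on them. Angptl4, an inhibitor of Lpl, had 0.74 (adjusted permutation p = 0.0192), and 0.58 without the farthest 2, and the nuclear receptor Nr5a2, from the granulosa list, had 0.69 (0.0465), and 0.54. The 5 genes nearest to Lipe were Arhgef11 (0.88), Bsn (0.87), Tep1 (0.86), Zer1 (0.85) and Nuak2 (0.85). Without the farthest 2 ovaries these were 0.72, 0.72, 0.66, 0.84 and 0.68, and within slide 2 they were 0.04, -0.17, 0.01, 0.60 and 0.42. Nearest to Gpd1 were Tmem119 (0.79), Trappc11 (0.78), Mrap, the accessory protein of the corticotropin receptor (0.76), Rab4b (0.75) and Mpv17l2 (0.75), and none passed. Within slide 2 those values were 0.36, 0.34, 0.71, 0.06 and -0.04.

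Over the 20 arrays r with the log2 75th percentile was -0.49 for Lipe and -0.56 for Gpd1, and between -0.24 and 0.00 for the other 8. Its part in the Lipe and Gpd1 relations was not tested. Slide accounted for 0.0451% of the variance of Adipoq, 17.4% for Fabp4, 15.8% for Gpd1 and 13.7% for Lipe. These shares are not adjusted for the number of slides and were not tested.

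Exposure moved none of the 10 genes past the test. limma, fitted to all 20 arrays with Benjamini-Hochberg adjustment over 23258 probes, called 0% of probes at each dose, and an unadjusted p under 0.05 was reached by 3.05% of probes at 0.06 mg/kg/day, by 4.58% at 20 mg/kg/day and 6.29% at 60 mg/kg/day against 0 mg/kg/day. The 3 comparisons share the same 5 control ovaries. Of the 10 members, 0 at each dose had values that did not overlap the controls, against 0.632%, 0.602% and 0.464% of all tested probes in the order of the doses.

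Adipoq averaged -1.19 ± 0.95 (SD, n = 4) at 0.06 mg/kg/day, -1.97 ± 1.34 (n = 5) at 20 mg/kg/day and -1.91 ± 1.11 (n = 6) at 60 mg/kg/day, and -1.32 ± 0.86 (n = 5) at 0 mg/kg/day. The differences from 0 mg/kg/day were 0.12 ± 0.69 (SE), -0.66 ± 0.65 and -0.59 ± 0.62 log2 at 0.06, at 20 and at 60 mg/kg/day, with 95% intervals of -1.32 to 1.57, -2.02 to 0.70 and -1.90 to 0.71. Cidec gave 0.07 ± 0.67, -0.91 ± 0.63 and -0.97 ± 0.60, with an interval of -2.24 to 0.30 at 60 mg/kg/day, and Aqp7 0.07 ± 0.69, -0.99 ± 0.65 and -0.55 ± 0.63. At 20 and at 60 mg/kg/day the estimates of these 3 genes lay below 0, and every one of their intervals held 0.

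Retn differed by 0.13 ± 0.63 (SE), -0.20 ± 0.59 and -0.74 ± 0.57 log2 at 0.06, at 20 and at 60 mg/kg/day against 0 mg/kg/day, and Pck1 by -0.34 ± 0.67, -0.62 ± 0.64 and -0.70 ± 0.61. For Fabp4 the differences were -0.31 ± 0.63, 0.28 ± 0.59 and -0.22 ± 0.56, for Cfd 0.14 ± 0.36, -0.19 ± 0.33 and 0.17 ± 0.32, for Lpl -0.18 ± 0.31, -0.34 ± 0.29 and -0.22 ± 0.28, and for Gpd1 0.38 ± 0.41, 0.15 ± 0.39 and 0.26 ± 0.37. Over the 20 ovaries dose accounted for 27.6% of the variance of Lipe, 20.8% for Cidec, 15.7% for Aqp7, 12.97% for Retn and 10.9% for Adipoq, and for between 5.08% and 7.99% for the other 5 genes. These shares are not adjusted for the number of groups, and groups with no bearing on a level also give a positive share. They were not tested or set beside those of all probes.

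Lipe was the member nearest to the test. Lipe averaged -3.00 ± 0.53 (SD, n = 4) at 0.06 mg/kg/day, -3.22 ± 0.29 (n = 5) at 20 mg/kg/day and -3.11 ± 0.23 (n = 6) at 60 mg/kg/day, and -3.55 ± 0.41 (n = 5) at 0 mg/kg/day. The difference from 0 mg/kg/day was 0.55 ± 0.24 (SE), 0.33 ± 0.22 and 0.44 ± 0.21 log2 at 0.06, at 20 and at 60 mg/kg/day (limma, unadjusted p = 0.0307, 0.158 and 0.0538, adjusted p = 1.00, 0.929 and 0.782). The second Lipe probe gave 0.57, 0.53 and 0.56 (limma, unadjusted p = 0.0478, 0.0503 and 0.0328, with the same adjusted p). Single ovaries weighed on these values. Without replicate 1 at 0 mg/kg/day, the lowest ovary, the differences were 0.40, 0.18 and 0.29, and without replicate 2 at 0.06 mg/kg/day, the highest, the first was 0.31. Within slides 1, 2 and 3 the difference at 0.06 mg/kg/day was 1.303, -0.35 and 0.05, at 20 mg/kg/day 0.96, -0.02 and 0.08, and at 60 mg/kg/day 0.66, 0.10 and 0.09. The summed level of the 12 luteal and steroid-making genes lay between 672 and 769 times the array's 75th percentile at 0.06 mg/kg/day, between 561 and 687 at 20 mg/kg/day and between 540 and 778 at 60 mg/kg/day, and between 545 and 648 at 0 mg/kg/day. The part of this sum in the Lipe values was not tested. Bright probes weigh most in it, such as Hsd3b1 (log2 level 7.15 to 7.63 over all ovaries) and Cyp11a1 (6.65 to 7.66). Akr1c18, also in the sum, ranged from -4.23 to 7.05, so the sum does not measure the amount of luteal tissue.

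**Figure D5:**
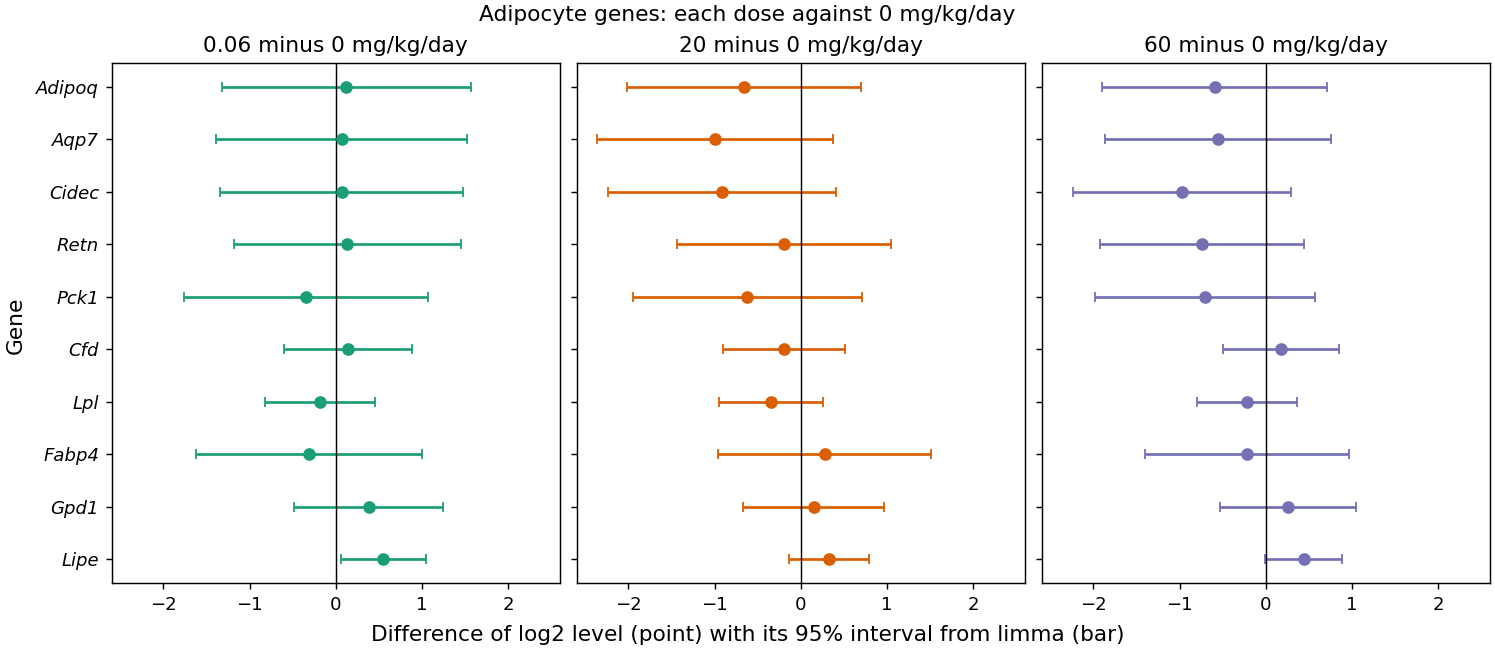
Difference in log2 level of each adipocyte gene (rows) at 0.06, at 20 and at 60 mg/kg/day from 0 mg/kg/day (x axis), as the limma estimate (point) with its 95% interval (bar). Intervals of Adipoq, Aqp7, Cidec, Retn and Pck1 are wider than those of Lipe, Lpl and Cfd. Among the probes drawn, the brightest of each gene, only the interval of Lipe at 0.06 mg/kg/day does not reach 0. The second Lipe probe, not drawn, had intervals above 0 at 0.06 and at 60 mg/kg/day.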

How the data were processed

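Ovary RNA of 20 rats was measured on 1-colour Agilent arrays. The deposited scanner tables give processed signal intensity per spot, background-subtracted by the Feature Extraction program per the file headers, and the authors' deposited series table holds centred log2 values, used here as an alternative. Control spots and spots with outlier flags were left out, intensities were divided by the array's 75th percentile over non-control spots, log2 was taken, and spots of a probe were averaged. Probes that 4 or more of the 20 arrays read well above background were kept (23258 of 30335; 18745 of the 30335 had 1 gene symbol, 11590 had none and 0 had several). A gene is shown by its brightest probe.

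Doses were compared with limma 3.58.1 in R 4.3.3 (all 20 arrays, no covariate). Correlations used numpy 2.4.6 with 100000 two-sided permutations, adjusted (Benjamini-Hochberg) over all tested probes for each gene compared. Both were tested on simulated data. Named genes were the 10 members, the 20 genes nearest to Adipoq, the 5 nearest to Lipe, Lpl, Gpd1 and Pck1, and the highest 4 of a list; those nearest to Fabp4 and Cfd were added after seeing the values. Members and lists were chosen with earlier results of these data known. Same-numbered replicates did not pair: over 27 pairs the median correlation of deviations was 0.03 and 8 were over 0.1. The background alternative used median spot and median background signals, since the tables hold no mean signal. The number of arrays limits the precision.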

Additional observations from a re-analysis of the deposited data

Results flagged for a closer look

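In 3 of the 40 groups checked (10 genes at 4 doses) 1 ovary lay far outside the others of its dose. Chance does so in about 1 group in 20, but the groups share ovaries and are not independent. Cidec and Retn, flagged below in the same ovary, had an r of 0.88 with each other over all ovaries. The count therefore cannot be weighed against that rate. Replicate 1 at 0.06 mg/kg/day, the ovary with the highest Adipoq, held the highest Cidec, -3.97 against -5.63 to -5.45 in the other 3 ovaries, and the highest Retn, -0.30 against -1.94 to -1.69. In replicate 2 at 0 mg/kg/day Gpd1 was lowest, -0.86 against 0.25 to 0.68 in the other 4.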

How the results depend on the processing

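The number of arrays limits the precision, fat on the samples was not recorded, and the low readings of Cidec, Aqp7 and Pck1 lay at the edge of detection. The count of 11 probes correlated with Adipoq was 7 among probes well above background on all arrays, 7 without the farthest 2 ovaries, 0 within each slide and 0 without the 5 ovaries low in Cyp17a1 (chosen after seeing the data), each with fewer probes or samples, and 0 with a replicate block, where the cause was not tested. A few probes at the smallest p that permutation can give cannot pass over all tested probes, however high their r. Counts of 0 therefore do not measure a loss of the relation. With the replicate block r was 0.98 for Cidec, 0.90 for Retn, 0.96 for Aqp7 and 0.88 for Pck1 (adjusted permutation p = 0.233, 0.775, 0.233 and 1.00). The same 4 in that order had 0.98, 0.96, 0.95 and 0.89 within slide 1, 0.93, 0.79, 0.99 and 0.70 within slide 2, 0.95, 0.96, 0.97 and 0.92 within slide 3, and 0.93, 0.87, 0.95 and 0.77 without the 5 ovaries, none then past the test. Pck1 had 0.78 without the farthest 2, and between 0.80 and 0.88 with 1 ovary left out. Cfd ranged between 0.65 and 0.82 and Gpd1 between -0.086 and 0.087 with 1 ovary left out. Gpd1 turned to -0.0058 in the authors' deposited table, -0.32 within slide 2 and -0.17 within slide 3, and Fabp4 to -0.048 within slide 3. The background correction with an offset moved the intercept shares of Cidec, Aqp7 and Pck1 to 72.0%, 70.3% and 80.9%, as its added constant does by construction. Quantile normalization, no filter, slide or dose as a block, and Cidec in place of Adipoq changed no call of a member. With Cidec in place of Adipoq, 8 of the 10 other probes stayed called, and Thrsp and Dgat2 did not. The slopes over arrays well above background were chosen after seeing the data. Dose differences, none of which passed in any fit that gave a p, changed sign as follows against 0 mg/kg/day. With Adipoq as a covariate Cidec gave -0.048 and Aqp7 -0.051 at 0.06, Retn 0.37 and Cfd 0.078 at 20, and Fabp4 0.059 and Aqp7 0.026 at 60 mg/kg/day. Aqp7 at 0.06 gave -0.0094 in the deposited table, and Pck1 at 0.06 gave 0.072 with the offset. Within slide 1, at 0.06 mg/kg/day Fabp4 gave 0.43, Pck1 0.18, Cfd -0.16 and Lpl 0.050, at 20 mg/kg/day Fabp4 -0.20, Pck1 0.37 and Cfd 0.13, and at 60 mg/kg/day Cfd -0.36. Within slide 2, Lipe gave -0.35 and Gpd1 -0.097 at 0.06, at 20 mg/kg/day Adipoq 1.61, Cidec 1.45, Retn 1.98, Aqp7 1.48, Pck1 1.00, Cfd 1.00, Lipe -0.023 and Gpd1 -0.38, and at 60 mg/kg/day Adipoq 0.053, Retn 0.35 and Aqp7 0.24. Within slide 3, at 0.06 mg/kg/day Adipoq gave -0.65, Cidec -0.47, Retn -0.64, Aqp7 -0.85 and Gpd1 -0.34, at 20 mg/kg/day Gpd1 -0.28, and at 60 mg/kg/day Adipoq 1.01, Cidec 0.0041, Fabp4 0.48, Retn 0.58, Aqp7 0.25 and Lpl 0.17. With 1 ovary left out the ranges that crossed 0 were, at 0.06 mg/kg/day, -0.33 to 0.38 for Adipoq, -0.32 to 0.26 for Cidec, -0.24 to 0.36 for Retn, -0.38 to 0.38 for Aqp7 and -0.079 to 0.40 for Cfd, at 20 mg/kg/day -0.060 to 0.51 for Fabp4, -0.48 to 0.31 for Retn, -0.40 to 0.092 for Cfd and -0.094 to 0.48 for Gpd1, and at 60 mg/kg/day -0.62 to 0.019 for Fabp4. The lowest of the 5 ranges at 0.06 mg/kg/day came without replicate 1 of that dose.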
